A study of Mus musculus with 12 samples.

Results

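Transcripts of 5 genes of the tumour necrosis factor (TNF) receptor superfamily and its ligands were followed through 12 RNA-seq libraries of sorted naive CD4 T cells of the mouse. The genes were taken by symbol from a table of 10073 genes: the receptors Tnfrsf9 (Entrez 21942), Tnfrsf18 (21936) and Cd27 (21940) and the ligands Tnfsf11 (21943) and Cd40lg (21947). All 5 were listed with a value above 0 in every library and passed the filter for testing, a mean of at least 0.5 RPKM (reads normalised to gene length in kilobases and to library depth) over the 12 libraries, as did 10021 genes in all. Receptors of this family bind trimeric ligands on neighbouring cells and recruit TRAF adaptor proteins, which lead to NF-kB and MAP kinase signalling. On T cells many of them give costimulatory signals beside the T cell receptor (TCR), and several, among them Tnfrsf9, are induced by TCR signals. The same receptors are also known for high levels on regulatory T cells.

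All mice were untreated and carried 2 alleles on a C57/BL6 background, Tg(Nr4a1-EGFP)GY139Gsat and Foxp3tm1Flv. The first is a transgene in which regulatory sequence of Nr4a1, a gene induced early by TCR signals, drives GFP (Nur77-GFP), and the second is a Foxp3 allele that reports as RFP. Age and sex are not in the labels. Naive cells, taken as CD4 positive, Foxp3-RFP negative and CD44 low, came from spleen and lymph nodes and were sorted without TCR stimulation into population A (GFP low, Ly6C positive), B (GFP intermediate, Ly6C positive), C (GFP intermediate, Ly6C negative) and D (GFP high, Ly6C negative), each from 3 mice. A library is named by population and mouse number, so A1 is population A of mouse 1. The series asks how the strength of basal TCR signalling relates to gene expression in naive cells. The labels call the libraries biological triplicates, and p-values measure the spread between them.

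Library depth, worked out from the RPKM values, was lowest in A3 at 6.31 M reads and highest in C1 at 9.07 M. Cd4, which encodes the coreceptor that defines these cells, had population means between 226 ± 2.30 RPKM (D) and 241 ± 12.7 RPKM (C). The transcripts of the sort markers went against the labels, Nr4a1 in A1 and B1 and Ly6c1 by whole populations, so each population is given by its label only. Nr4a1 was 57.7 RPKM in A1 and 36.0 in B1, against 22.9 and 26.1 in the other libraries labelled A and 64.6 and 73.3 in the other libraries labelled B. Ly6c1, which encodes Ly6C, was 64.6 ± 7.40 RPKM in A and 64.3 ± 4.36 in C, and 43.9 ± 6.53 in B and 43.7 ± 5.10 in D (mean ± SD, n = 3), so it did not follow the labelled Ly6C gates. Unlike Nr4a1, Ly6c1 did not set A1 and B1 apart from their labels. It was 63.0 RPKM in A1, between A2 (58.1) and A3 (72.6). In B1 it was 50.2 RPKM, against 37.1 in B2 and 44.5 in B3, and below every library labelled A or C. Library C3 held 837 RPKM of plasma cell markers (Jchain, Xbp1 and Prdm1, 3 of 5 listed) against 18.3 to 24.4 elsewhere. Results are therefore given with and without A1 and B1, and where C3 matters it is named.

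The sequence next to the transcription start is shown for the pair of members that moved furthest. RefSeq promoters (build GRCm38.p6, 250 bases before to 50 after an annotated start) were found for 4 of the 5 members, with 2 starts for Tnfrsf9, and Cd40lg had no entry. The submitters' processing notes name builds mm9 and mm10 without a role, so these positions belong to the RefSeq table and not to the measured values. Capitals mark every match, on either strand, to 3 short motifs of factors downstream of the TCR and of costimulation: the NFAT core GGAAA, the AP-1 motif TGANTCA and an NF-kB motif of GGG, any 3 bases and TTCC.
Tnfrsf9, first start, chr4:150919905-150920204, plus strand: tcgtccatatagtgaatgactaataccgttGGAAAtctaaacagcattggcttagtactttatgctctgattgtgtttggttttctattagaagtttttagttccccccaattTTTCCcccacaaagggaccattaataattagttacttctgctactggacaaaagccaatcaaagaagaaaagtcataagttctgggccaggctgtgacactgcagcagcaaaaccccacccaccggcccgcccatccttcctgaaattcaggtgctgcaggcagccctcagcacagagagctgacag
Tnfrsf9, second start, chr4:150927749-150928048, plus strand: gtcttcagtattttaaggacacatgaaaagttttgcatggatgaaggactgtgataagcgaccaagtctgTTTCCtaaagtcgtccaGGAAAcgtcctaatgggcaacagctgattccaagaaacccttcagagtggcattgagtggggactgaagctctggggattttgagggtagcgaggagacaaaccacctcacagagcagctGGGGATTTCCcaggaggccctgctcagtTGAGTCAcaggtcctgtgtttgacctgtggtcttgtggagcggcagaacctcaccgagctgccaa
Tnfsf11, chr14:78307994-78308293, minus strand: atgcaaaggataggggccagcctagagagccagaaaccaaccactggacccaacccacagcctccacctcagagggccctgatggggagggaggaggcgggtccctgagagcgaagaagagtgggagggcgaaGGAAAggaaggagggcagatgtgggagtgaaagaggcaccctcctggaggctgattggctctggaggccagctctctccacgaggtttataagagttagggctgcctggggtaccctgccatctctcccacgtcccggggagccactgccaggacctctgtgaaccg
The second Tnfrsf9 promoter held an NF-kB match, GGGGATTTCC, at bases -43 to -34 from the start and an AP-1 match, TGAGTCA, at -15 to -9. The last 5 bases of that NF-kB match are also counted as an NFAT core. Among 32544 different RefSeq promoters of this length, 5.56% held the NF-kB motif and 7.79% the AP-1 motif. The first Tnfrsf9 promoter and those of Tnfrsf18, Tnfsf11 and Cd27 held 0 matches to either of these. The NFAT core was in all 5 promoters, 1 to 3 times each, and in 61.5% of all promoters. Neither the Nr4a response element AAGGTCA (4.71% of all promoters) nor the Egr core GTGGGCG (8.0%) was found in the 5. A match is a string of letters and not a measured binding site.

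**Figure D1:**
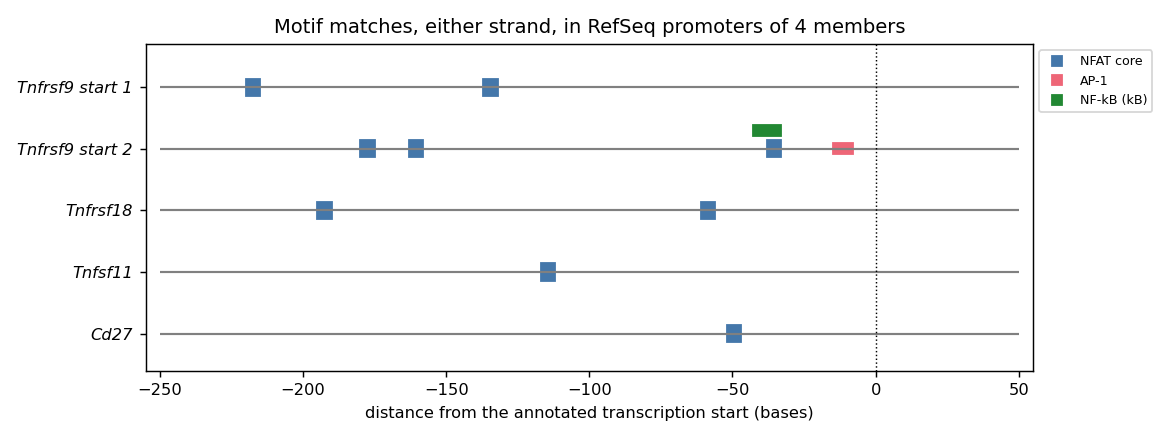
Matches to the NFAT core, AP-1 and NF-kB motifs, on either strand, along RefSeq promoters of 4 members; the x axis is the distance from the annotated start in bases, and boxes are matches. The second start of Tnfrsf9 is the only line of these 5 with an NF-kB and an AP-1 match.

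Tnfrsf9 encodes the costimulatory receptor CD137, which binds the ligand encoded by Tnfsf9. Its level was 20.4, 1.42 and 1.93 RPKM in A1, A2 and A3, 1.43, 26.4 and 20.3 in B1, B2 and B3, 1.59, 1.38 and 1.65 in C1, C2 and C3, and 24.3, 19.1 and 23.2 in D1, D2 and D3. The libraries fell into a set of 6 between 1.38 and 1.93 RPKM and a set of 6 between 19.1 and 26.4 RPKM, with a 9.90-fold step and no value between. The high set held all libraries labelled D, B2, B3 and A1, which were also the 6 highest in Nr4a1. Behind the low values stood 21 to 32 reads and behind the high ones 350 to 503, so counting error does not bridge the step: the exact Poisson 95% interval ended at 2.80 RPKM for A3 and began at 17.1 RPKM for D2 (counting error only). By population the order was D (22.2 ± 2.77 RPKM), B (16.04 ± 13), A (7.91 ± 10.8) and C (1.54 ± 0.143), and the libraries of each neighbouring pair in this order overlapped.

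Tnfsf11 encodes RANKL, the ligand known for osteoclast and lymph node development, which activated T cells also make. It was 5.27, 0.755 and 0.709 RPKM in A1, A2 and A3, and 0.882, 6.20 and 3.81 in B1, B2 and B3. In C1, C2 and C3 it was 0.987, 0.522 and 0.591 RPKM, and in D1, D2 and D3 it was 5.11, 6.14 and 5.99. The same 6 libraries as for Tnfrsf9 were high, at 3.81 RPKM or more, and the other 6 stood at 0.987 RPKM or less, where 8 to 20 reads were counted. The mean levels were 5.75 ± 0.553 RPKM in D, 3.63 ± 2.66 in B, 2.25 ± 2.62 in A and 0.700 ± 0.251 in C, and neighbours in this order overlapped.

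Tnfrsf18 encodes GITR, a costimulatory receptor abundant on regulatory T cells. Its level was 17.5, 14.6 and 16.3 RPKM in A1, A2 and A3, 18.5, 17.7 and 19.7 in B1, B2 and B3, 16.7, 15.3 and 15.1 in C1, C2 and C3, and 20.1, 19.4 and 20.8 in D1, D2 and D3. The highest library was 1.43-fold above the lowest, and there was no step: 173 to 303 reads were counted per library. A1 was the highest of A and B1 lay between B2 and B3, but the counting intervals of A1 (15.4 to 19.9 RPKM), B1 (16.1 to 21.2) and B2 (15.6 to 19.99) overlapped, so the gene does not place A1 or B1. The order was D (20.1 ± 0.710 RPKM), B (18.6 ± 1.01), A (16.2 ± 1.46) and C (15.7 ± 0.860). The libraries of B and A did not overlap, whereas those of D and B and those of A and C did.

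Cd40lg encodes CD40 ligand, by which helper T cells stimulate B cells and dendritic cells, and it ran in the other direction. It was 87.1, 118 and 108 RPKM in A1, A2 and A3, 90.9, 85.0 and 75.3 in B1, B2 and B3, between 104.3 and 104.8 in all 3 libraries labelled C, and 82.5, 75.4 and 84.5 in D1, D2 and D3. The 6 libraries with the lowest Cd40lg were the 6 with the highest Tnfrsf9, with B1 next above them. Means were 104.6 ± 0.260 RPKM in C, 104.2 ± 15.6 in A, 83.7 ± 7.89 in B and 80.8 ± 4.79 in D, and the libraries of neighbours in this order overlapped.

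Cd27 encodes the receptor for CD70, which supports T cell expansion and survival and is present on naive T cells. It was the most abundant of the 5 per kilobase and the least variable, with a coefficient of variation over the 12 libraries of 4.80%, against 11.8% for Tnfrsf18, 14.9% for Cd40lg, 81.9% for Tnfsf11 and 92.1% for Tnfrsf9. Levels were 177, 169 and 174 RPKM in A1, A2 and A3, 183, 188 and 193 in B1, B2 and B3, 173, 186 and 168 in C1, C2 and C3, and 183, 192 and 188 in D1, D2 and D3. B (187.9 ± 4.92 RPKM) and D (187.7 ± 4.34) stood above C (175.9 ± 9.38) and A (173 ± 4.02). D and C overlapped through C2, and C and A overlapped too.

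**Figure D2:**
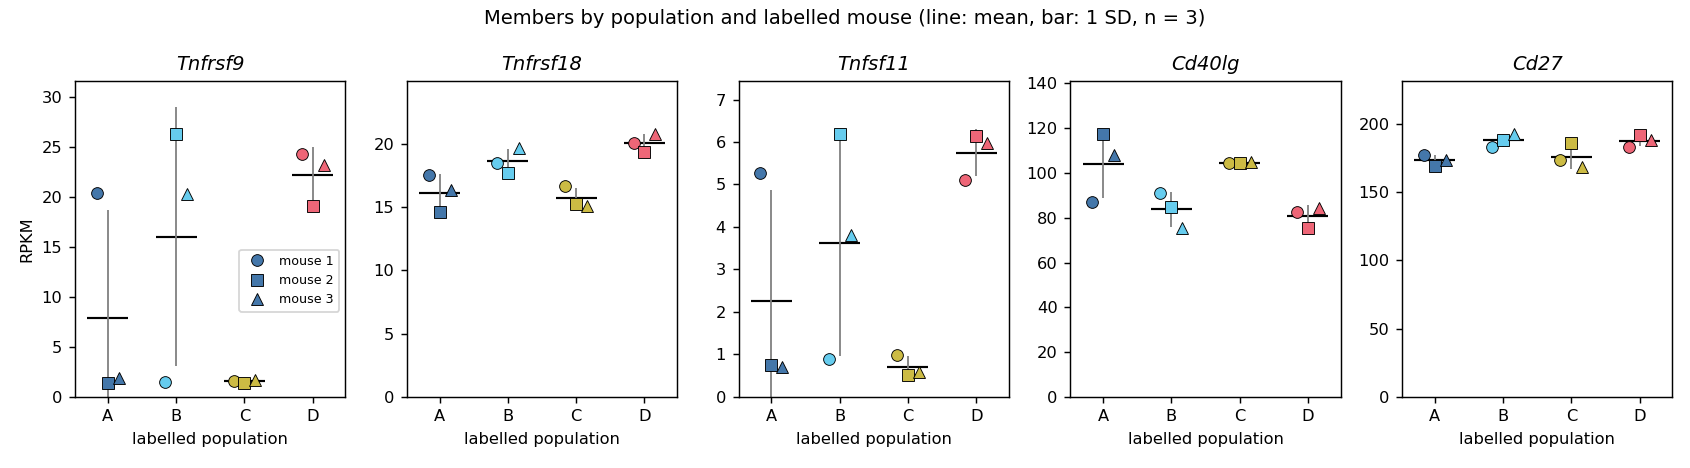
RPKM of each member (y axis, from 0) in the libraries labelled A, B, C and D (x axis), with the symbol giving the labelled mouse, the line the mean and the bar 1 SD (n = 3). Tnfrsf9 and Tnfsf11 form a high and a low set in which A1 and B1 stand apart from their labelled populations, while Tnfrsf18 and Cd27 vary within a narrow range.

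**Figure D3:**
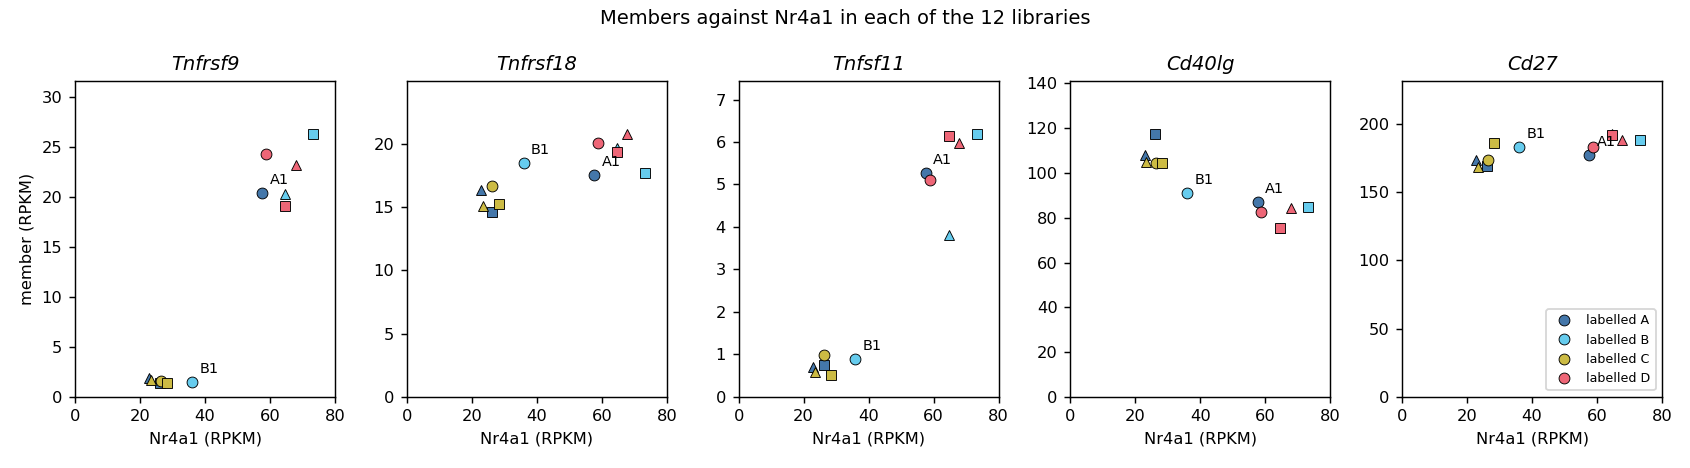
RPKM of each member (y axis) against RPKM of Nr4a1 (x axis) in the 12 libraries, coloured by labelled population, with A1 and B1 named. The 6 libraries with Nr4a1 at 57.7 RPKM or more hold the 6 highest values of Tnfrsf9 and Tnfsf11 and the 6 lowest of Cd40lg.

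D and C were both labelled as sorted Ly6C negative and differ in the GFP gate, high against intermediate, and neither A1 nor B1 is in this pair. Ly6c1 transcript differed too, at 64.3 ± 4.36 RPKM in C and 43.7 ± 5.10 in D. The pair is thus not a contrast of GFP at a constant level of Ly6c1. Tnfrsf9 was 14.4-fold and Tnfsf11 8.21-fold as high in D as in C by the ratio of mean RPKM, Tnfrsf18 was 1.28-fold as high, and Cd40lg stood at 0.773 of its level in C. The libraries of D and C did not overlap for these 4 genes, as for 24.0% of genes tested. The differences in log2(RPKM + 0.5), a scale that understates the change of low genes such as Tnfsf11, were 3.47 ± 0.94 for Tnfrsf9, 2.40 ± 0.59 for Tnfsf11, 0.35 ± 0.07 for Tnfrsf18, -0.37 ± 0.10 for Cd40lg and 0.09 ± 0.05 for Cd27 (± SE). They had the same sign in 3 of 3 mice, as numbered by the labels, for every member.

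By limma on all 12 libraries, with p-values adjusted over all genes tested, 0 of the 5 passed 0.05 in this comparison, where 0.00998% of genes passed. Adjusted p was 0.106 for Tnfrsf18, Tnfsf11 and Cd40lg, 0.109 for Tnfrsf9 and 0.303 for Cd27. At an unadjusted p under 0.05 limma had 4 of the 5, against 18.1% of genes, and limma-voom on the recovered reads also called 0, where 0.00998% of genes passed. Because the 12-library fit shares 1 estimate of spread, the values of A1 and B1 enter it. Fitted on the 6 libraries labelled C and D alone, Tnfrsf9 (adjusted p = 2.8e-06), Tnfsf11 (0.000103) and Tnfrsf18 (0.0203) rose and Cd40lg fell (0.00548), while Cd27 did not pass (0.385); 4.80% of genes passed in that fit. The same 4 passed with 12 libraries less A1 (adjusted p 0.0311 to 0.0354), less B1 (0.0241 to 0.0492), or less both (1.68e-07 for Tnfrsf9 to 0.0107 for Tnfrsf18, with 7.63% of genes). The number of all genes called in this pair also varied with the library left out, as given further below. These calls are thus not read as particular to the members. The median difference of the 5 members was 0.35, which is the value of Tnfrsf18, beside 0.01 over all genes tested. The members were chosen with earlier results of these data known, so this median is no test of the 5 as a set.

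B and A, sorted as Ly6C positive with intermediate and low GFP, differed one way in mouse 1 and the other way in mice 2 and 3 for Tnfrsf9 and Tnfsf11. In this pair too Ly6c1 differed, at 64.6 ± 7.40 RPKM in A and 43.9 ± 6.53 in B. Tnfrsf9 differed by -3.43 on the log2 scale in mouse 1, 3.81 in mouse 2 and 3.10 in mouse 3, and Tnfsf11 by -2.06, 2.42 and 1.84. Tnfrsf18 (0.08, 0.27 and 0.26) and Cd27 (0.05, 0.15 and 0.15) were higher in B in 3 of 3 mice. Cd40lg differed by 0.06, -0.47 and -0.52. Mouse numbers are those of the labels. By deviations from population means, same-numbered libraries were no more alike than others (mean correlation -0.072, against 0.032 for different numbers and populations). Libraries did not overlap for Tnfrsf18 and Cd27, both higher in B, where 29.2% of genes did not overlap, though the nearest libraries of Tnfrsf18 were only 17.5 (A1) and 17.7 RPKM (B2). In the 12-library limma fit 0 of 5 members passed, where 2.23% of genes did (0.569% higher and 1.66% lower in B). The share of all genes was 0.0200% with the mouse number as a block, which the labels give. Adjusted p was 0.48 for Tnfrsf9 and Tnfsf11, 0.121 for Tnfrsf18, 0.0969 for Cd40lg and 0.155 for Cd27. At an unadjusted p under 0.05 limma had 3 of 5 against 23.1% of genes, and voom called 0, where 3.21% of genes passed. On the 6 libraries alone limma also called 0, where 3.79% of genes passed (0.609% higher and 3.18% lower). Without A1, Cd40lg passed as lower in B (-0.43 ± 0.08, adjusted p = 0.0452), in a pair where the number of all genes called also varied with the library left out. Without A1 and B1, which leaves 2 libraries in each, Tnfrsf9 (3.45 ± 0.16, adjusted p = 1.05e-06) and Tnfsf11 (2.13 ± 0.22, 0.000265) passed as higher and Cd40lg (-0.49 ± 0.07, 0.00227) as lower in B, with 10.9% of genes, and Tnfrsf18 (0.26, 0.0673) and Cd27 (0.15, 0.0984) did not. A1 and B1 were set aside for Nr4a1 values at odds with their labels. The 6 libraries highest in Nr4a1 were also the 6 highest in Tnfrsf9 and Tnfsf11 and the 6 lowest in Cd40lg. Leaving A1 and B1 out therefore favours calls of these genes. The p-values of fits without A1 or B1 are no independent support, here or in the other comparisons.

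D and A are labelled GFP high and GFP low, although mean Nr4a1 was lower in C (26.0 RPKM) than in A (35.6). That order rests on A1 (57.7 RPKM), since A2 and A3 stood at 26.1 and 22.9. The log2 difference was 2.30 ± 0.94 for Tnfrsf9, 1.60 ± 0.59 for Tnfsf11, 0.31 ± 0.07 for Tnfrsf18, -0.36 ± 0.10 for Cd40lg and 0.12 ± 0.05 for Cd27. In mouse 1 the differences of Tnfrsf9 (0.25) and Tnfsf11 (-0.04) were small, against 3.35 and 3.29 for Tnfrsf9 and 2.40 and 2.42 for Tnfsf11 in mice 2 and 3. Tnfrsf18 and Cd27 were higher and Cd40lg lower in D with no overlap, where 25.8% of genes did not overlap. With 12 libraries limma called 0 of 5 (adjusted p 0.151 to 0.221), where 0.00998% of genes passed, and had 5 of 5 at an unadjusted p under 0.05, against 19.0% of genes. Voom called 0, where 0.00998% of genes passed, as did limma on the 6 libraries alone, where 0.0299% of genes passed. Without A1 all members except Cd27 passed (adjusted p 0.0341 to 0.0449), and likewise without A1 and B1, where the difference was 3.39 ± 0.15 for Tnfrsf9, 2.34 ± 0.20 for Tnfsf11, 0.37 ± 0.08 for Tnfrsf18 and -0.48 ± 0.07 for Cd40lg (adjusted p 5.24e-07 to 0.0146, with 8.84% of genes). Calls among all genes in this pair varied with the library left out too, so those of the members are not read as particular to them.

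Comparing C with B sets cells labelled Ly6C negative against Ly6C positive, both GFP intermediate. Ly6c1 transcript ran against these labels, at 64.3 ± 4.36 RPKM in C and 43.9 ± 6.53 in B. Tnfrsf18 was lower in C (-0.24 ± 0.07) and Cd40lg higher (0.32 ± 0.10), each with the same sign in 3 of 3 mice and no overlap, as for 15.1% of genes. Tnfrsf9 differed by -2.33 ± 0.94 and Tnfsf11 by -1.53 ± 0.59, with B1 among the low libraries, and Cd27 by -0.10 ± 0.05. Limma on 12 libraries called 0 of 5 (adjusted p 0.285 to 0.383, with 0.00998% of genes passing) and had 4 of 5 at an unadjusted p under 0.05, against 13.4% of genes. Voom (0.00998% of genes) and the fit of 6 libraries (0.00% of genes) also called 0. Without B1, Tnfrsf9 (-3.54, adjusted p = 0.0344) and Tnfsf11 (-2.18, 0.0455) passed as lower in C, in a pair where calls among all genes also varied with the library left out. Without A1 and B1 the same genes passed and Cd40lg passed as higher (0.38 ± 0.07, adjusted p = 0.00522), with 7.74% of genes. The -3.54 of Tnfrsf9 rests on leaving out B1, the only library labelled B that was low in this gene. Between these populations of 1 GFP label Tnfrsf9 differed by -2.33 with 12 libraries, beside 3.47 between D and C. By mouse its difference was 0.11 in mouse 1, -3.84 in mouse 2 and -3.28 in mouse 3, and libraries overlapped. Nr4a1 was lower in C than in B in 3 of 3 mice.

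Whether the D minus C step differed from the B minus A step was tested as a contrast of the 4 populations. The difference of steps was 2.31 ± 1.33 for Tnfrsf9 and 1.67 ± 0.84 for Tnfsf11 with 12 libraries (adjusted p = 0.428 and 0.369), and 0.02 ± 0.21 and 0.27 ± 0.28 without A1 and B1 (0.981 and 0.726). For Tnfrsf18, Cd40lg and Cd27 it was 0.15 ± 0.10, -0.06 ± 0.14 and -0.02 ± 0.06 (adjusted p 0.503 to 0.886). In limma 0 members passed, with 0.00% of genes called, and 0 at an unadjusted p under 0.05, against 15.0% of genes. Voom also called 0 members, with 0.00% of genes. The 95% interval for Tnfrsf9 ran from -0.57 to 5.20 with 12 libraries and from -0.44 to 0.48 without A1 and B1, so the steps are not shown to be alike. The F test over the 4 populations called 0 of 5 with 12 libraries (5 of 5 at an unadjusted p under 0.05, against 21.7% of genes) and 4 of 5 without A1 and B1, where it called 0.00998% and 9.63% of genes.

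**Figure D4:**
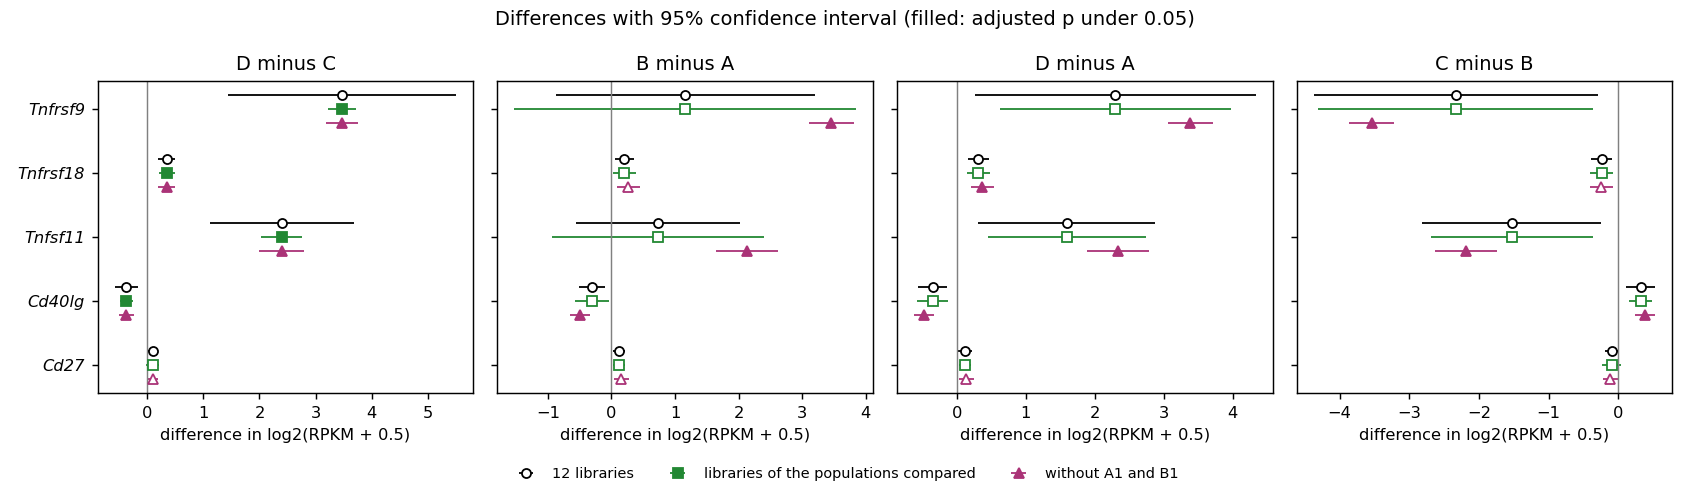
Difference in log2(RPKM + 0.5) with its 95% confidence interval (x axis) for each member (y axis) in 4 comparisons, from limma fits of 12 libraries, of the 6 libraries compared, and without A1 and B1; filled symbols passed an adjusted p of 0.05. For D minus C the estimates are the same in the 3 fits and only the intervals change, while in B minus A the estimate for Tnfrsf9 moves from 1.16 to 3.45.

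Of 7 markers of regulatory T cells, 5 were listed (Foxp3, Ikzf2, Il2ra, Ctla4 and Nrp1), and 4 of them were highest in the 6 libraries high in Tnfrsf9 and Tnfsf11. The exception was Nrp1, at 0.871 RPKM in C3 against 0.623 to 0.906 in those 6. Tnfrsf18 and Cd27 had other sets of highest libraries. The summed level of the 5 markers, most of it Ctla4 (34.5 RPKM in A1), was 34.9 to 44.4 RPKM in D and 8.53 to 14.3 in C, 46.4 in A1 against 9.43 and 12.8 in the other libraries labelled A, and 10.7 in B1 against 33.7 and 42.5 in the other libraries labelled B. Foxp3 itself was 3.25 to 4.00 RPKM in the 6 libraries high in Tnfrsf9 and 1.146 to 1.53 in the other 6, although the sort left out Foxp3-RFP positive cells. Proliferation markers (Mki67 and Top2a, 2 of 5 listed) summed to 4.71 to 7.18 RPKM in D and 1.82 to 2.72 in C1 and C2, with 24.3 in C3. Of 2 CD8 T cell markers 1 was listed, Cd8b1, which was 12.7 to 15.96 RPKM in C and 10.2 to 11.2 in D and passed as lower in D on the 6 libraries alone (-0.44 ± 0.09, limma adjusted p = 0.0354) and without A1 and B1 (0.0115). The part of these markers in the differences of the members was not tested. In bulk RNA, more cells that express a gene and more RNA of it per cell cannot be told apart.

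Among the rest of the family, Tnfrsf4 showed the clearest difference. It encodes OX40, a costimulatory receptor of activated and regulatory T cells, and its gene lies next to Tnfrsf18. It was 12.6, 8.52 and 8.48 RPKM in A1, A2 and A3, 8.004, 15.3 and 14.9 in B1, B2 and B3, 8.77, 8.14 and 7.29 in C1, C2 and C3, and 13.9, 15.0 and 15.1 in D1, D2 and D3. These are the same 6 high libraries as for Tnfrsf9. Between D and C the difference was 0.82 ± 0.21 with 12 libraries (adjusted p = 0.106), and it passed on the 6 libraries alone (0.000895) and without A1 and B1 (5.5e-05). Of 20 protein-coding neighbours of the members, up to 2 on each side, 15 were in the table, and among these Tnfrsf4 was the only gene that passed between D and C in any of these 3 fits. Of all genes tested, 0.00998% passed with 12 libraries, 4.80% on the 6 libraries alone and 7.63% without A1 and B1. The count among neighbours is thus no result about where the members lie. For example, Park7 and Per3 beside Tnfrsf9 differed by 0.03 ± 0.06 and -0.07 ± 0.19, and Sdf4 beside Tnfrsf18 by -0.01 ± 0.05.

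Of 25 other receptors on the list used, 13 were listed in the table. In the 12-library limma fit 0 of 13 passed in any of the 4 pairs, with 3 to 4 of 13 at an unadjusted p under 0.05, against 13.4 to 23.1% of all genes. Between D and C the libraries did not overlap for Tnfrsf4, Tnfrsf1b and Tnfrsf14 (higher in D) and Tnfrsf10b (lower in D), 4 of 13 beside 24.0% of all genes. On the 6 libraries alone Tnfrsf4 passed, 1 of 13 beside 4.80% of all genes. Without A1 and B1 Tnfrsf1b, the TNF receptor of activated and regulatory T cells, also rose (12.6 ± 1.35 RPKM in C, 16.1 ± 0.951 in D, limma adjusted p = 0.0225). That made 2 of 13, beside 7.63% of all genes. Tnfrsf14, which encodes HVEM, was 79.9 ± 3.07 RPKM in C and 89.1 ± 2.59 in D and did not pass there. Tnfrsf10b, a death receptor for the ligand TRAIL, was 2.90 ± 0.247 and 2.10 ± 0.213 RPKM. Tnfrsf12a and Tnfrsf25 were highest in B, at 8.33 ± 0.706 and 37.2 ± 1.81 RPKM, against 6.34 ± 0.613 and 32.4 ± 1.71 in A, where their libraries did not overlap with those of B. Of the 13, 2 were higher and 1 lower in B without overlap, beside 13.4% and 15.8% of all genes. Tnfrsf13b, a receptor of B cells and plasma cells, was 21.3 RPKM in C3, the library high in plasma cell transcripts, and 5.26 to 9.77 elsewhere.

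Of 16 other ligands, 6 were listed. In limma 0 of 6 passed in the 12-library fit, with 2 at an unadjusted p under 0.05 between D and C, against 18.1% of all genes (0.00998% at the adjusted threshold). Without A1 and B1, Lta, which encodes lymphotoxin alpha, rose (17.98 ± 0.956 RPKM in C, 22.3 ± 1.73 in D, limma adjusted p = 0.0196), and so did Fasl, the death ligand (4.38 ± 0.664 and 5.99 ± 0.506 RPKM, 0.0431). These were 2 of 6 in a fit where 7.63% of all genes passed. Ltb, the membrane partner of Lta, was 138.9 ± 5.62 RPKM in C and 128.0 ± 4.92 in D, and Tnf 10.1 ± 0.388 and 9.77 ± 0.980. Tnfsf8 and Tnfsf10, the latter encoding TRAIL, were higher in A (31.6 ± 1.85 and 9.06 ± 0.733 RPKM) than in B (27.9 ± 1.47 and 7.36 ± 0.324) with no overlap. That is 2 of 6, beside 15.8% of all genes lower in B without overlap. Of the 6 binding partners of the members (Tnfsf9, Tnfsf18, Tnfrsf11a, Tnfrsf11b, Cd40 and Cd70), 0 were in the table, and they were not analysed here.

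**Figure D5:**
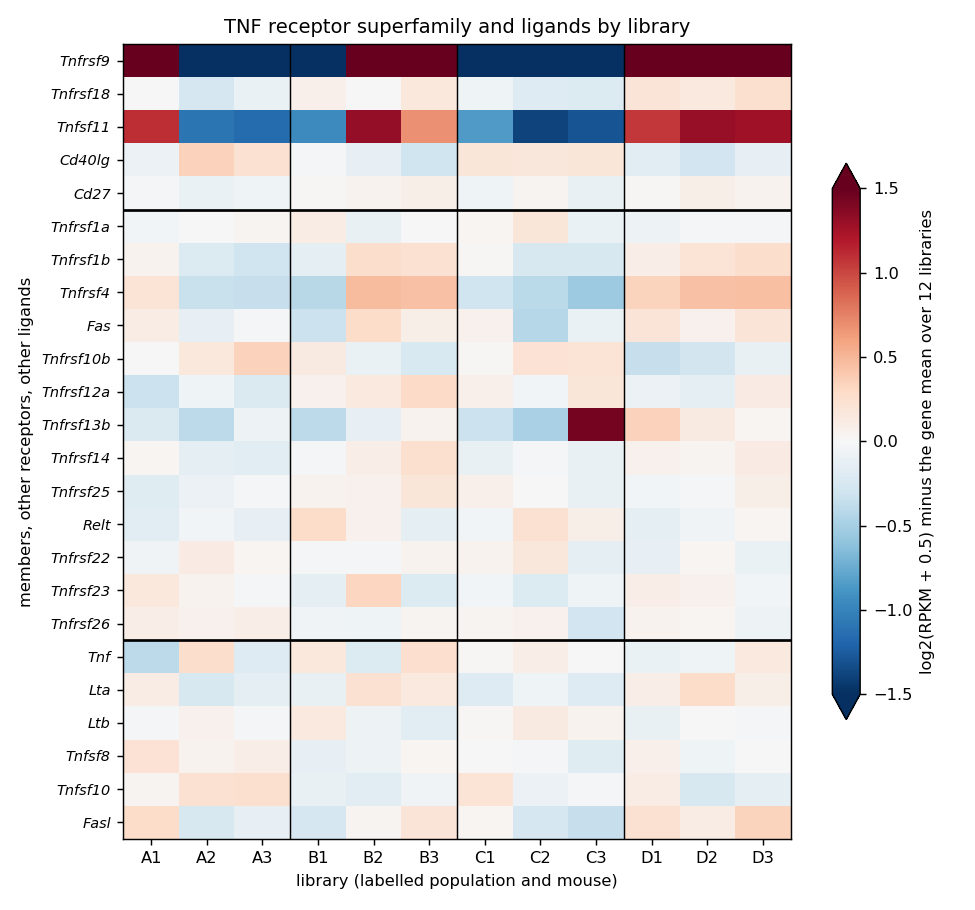
Log2(RPKM + 0.5) of the 5 members, 13 other receptors and 6 other ligands (rows, divided by thick lines) in each library (columns), minus the gene's mean over 12 libraries, with colours cut at 1.5 in each direction. Tnfrsf9 and Tnfsf11 share their 6 high libraries with Tnfrsf4, and Tnfrsf13b stands out in C3.

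All 26 genes of the list of TRAF adaptors and other mediators were in the table, at mean levels from 5.72 (Siva1) to 201 RPKM (Traf3ip3). Between D and C limma called 0 of 26 with 12 libraries (6 at an unadjusted p under 0.05, against 18.1% of all genes), with a median difference of 0.01 as over all genes. Tank, a TRAF-binding regulator, rose on the 6 libraries alone (14.2 ± 0.451 RPKM in C, 17.7 ± 0.630 in D, limma adjusted p = 0.0295) and without A1 and B1 (0.00701). In the latter fit Traf3ip3 rose as well (186 ± 12.0 and 218 ± 12.7 RPKM, 0.0257). These were 1 of 26 on the 6 libraries, beside 4.80% of all genes, and 2 of 26 without A1 and B1, beside 7.63%. Traf1, an adaptor of Tnfrsf9 that NF-kB induces, was 43.6 ± 2.09 RPKM in C and 51.6 ± 3.84 in D with no overlap and did not pass in these 3 fits between D and C. Between B and A, Traf7 passed with 12 libraries as higher in B (49.3 ± 1.73 RPKM in A, 56.8 ± 2.41 in B, limma adjusted p = 0.0463) but not with the mouse as a block (0.0767) or on the 6 libraries alone (0.0667). Tnip1 and Tradd stood at 32.8 ± 2.47 and 15.1 ± 0.668 RPKM in A and 37.3 ± 1.197 and 17.7 ± 0.539 in B, and Birc2, a TRAF-bound ubiquitin ligase, at 43.8 ± 1.60 and 37.7 ± 1.87, each with no overlap. Among the 26, the libraries of D and C did not overlap for 6 genes higher and 4 lower in D, where 14.1% of all genes tested were higher and 9.89% lower without overlap. Those of B and A did not overlap for 7 genes higher and 2 lower in B, beside 13.4% and 15.8% of all genes.

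Among 8992 genes, gene models without a proper symbol left out, with at least 2 RPKM in their highest population, those most like each member were found by Pearson's r of log2(RPKM + 0.5) over the 12 libraries. For Tnfrsf9 they were Ikzf2 (r = 0.995), Arhgap20 (0.995) and Ift80 (0.995), and for Tnfsf11 Elk3 (0.989), Bcl6 (0.988) and Ift80 (0.988). These values rest on the distance between the high and the low set of 6 libraries. For Tnfrsf18 they were Tango2 (0.932), Gfod1 (0.913) and Peak1 (0.912), for Cd40lg Txnip (0.967), Dpy19l1 (0.948) and Gbp2 (0.946), and for Cd27 Cln3 (0.952), Bin1 (0.941) and Pank4 (0.941). Ikzf2, which encodes the factor Helios, spanned 0.444 to 6.62 RPKM, and Txnip, a regulator of glucose uptake, 266 to 372 RPKM.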

How the data were processed

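Sequencing libraries came from SMART-seq v4 cDNA by NexteraXT, per the labels' protocols. The submitters' processing notes name STAR and the builds mm9 and mm10, with no role; not given in the sources used here are the counting tool, the annotation and any strand setting. The authors deposited 1 table of RPKM values, per the file headers, with a column per library and 10073 genes; its other sample columns number 0. Depth and reads were recovered from the steps between low values: 100.0% of values examined came within 0.1 of a whole read.

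Groups and mouse numbers came from the labels. The test was limma 3.58.1 (R 4.3.3) on log2(RPKM + 0.5), its prior variance following the mean level, genes of mean 0.5 RPKM or more, all 12 libraries, no block, Benjamini-Hochberg adjustment over all genes within each comparison, threshold 0.05. It was tested on simulated data in which no library departed from its label, so that run does not cover the effect of A1 and B1. Python 3.11.15 with numpy 2.4.6, pandas 2.3.3, scipy 1.17.1 and matplotlib 3.10.9 did the rest. Same-numbered libraries come from 1 mouse per the labels; their deviations from population means correlated at -0.072 on average across genes (18 pairs, 1 over 0.1).

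The members, lists, tests and the alternative leaving out A1 and B1 were chosen with earlier results of these data known. Besides members and their binding partners, up to 6 genes per list by smallest F-test p and 3 most alike genes per member were named; Traf1, Tnfrsf13b, the neighbouring genes, Jchain, Xbp1, Prdm1, the markers and Hbb-bs were named after values were seen or as checks. Alternatives were other pseudocounts (0.1, 1), filters (none, 5 RPKM), scalings, no trend, the populations compared alone, the mouse as replicate block, limma-voom on recovered reads and left-out libraries.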

Additional observations from a re-analysis of the deposited data

How the results depend on the processing

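The signs of all log2 differences of the 5 members in the 4 pairs held under every alternative run; the filter at 5 RPKM removed Tnfsf11. The difference of steps of Cd40lg changed sign without A1 and B1 (0.12) and without A1, B1 and C3 (0.12), ranging from -0.16 to 0.058 with 1 library left out, and that of Cd27 ranged from -0.055 to 0.019. Counts of calls depended on A1 and B1; the cause was not tested. For D minus C the 12-library counts of 0 members and 1 gene became 4 and 481 on 6 libraries, 4 and 765 without A1 and B1, 4 and 841 without A1, B1 and C3, and ranged over 0 to 4 and 1 to 398 with 1 library left out. For B minus A, 0 and 223 became 3 and 1094 without A1 and B1 and 4 and 1638 without C3 too, with 0 to 1 and 0 to 461 when 1 library was left out; genes numbered 380 on 6 libraries, 2 with the replicate block and 3 with no trend. For D minus A, 0 and 1 became 4 and 886, and 4 and 1357 without C3 too, with 0 to 4 and 1 to 362, and 3 genes on 6 libraries. For C minus B, 0 and 1 became 3 and 776, and 3 and 873, with 0 to 2 and 0 to 386, and 0 genes on 6 libraries. The difference of steps called 0 genes, and 0 to 261 with 1 library left out. The F test's 0 and 1 became 4 and 965, and 4 and 1311, with 0 to 4 and 1 to 401, and 2 genes by voom. The block changed no call of a member and ended that of Traf7 between B and A (adjusted p = 0.0767). Tnfsf11 in the low libraries rests on 8 to 20 reads, so differences among those were not detectable at this depth.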

Other observations

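The 5 receptors of this family whose libraries labelled D all lay above those labelled C (Tnfrsf9, Tnfrsf18, Tnfrsf4, Tnfrsf1b and Tnfrsf14) are all annotated by RefSeq on chromosome 4, where 7 of the family genes in the table lie; the other pair there is Tnfrsf25, at 34.5 ± 2.34 RPKM in C and 34.9 ± 1.78 in D, and the ligand Tnfsf8, at 27.6 ± 1.89 and 29.1 ± 1.39. Of all genes tested, 14.1% were higher in D than in C without overlap, and the share among genes of chromosome 4 was not worked out. Tnfrsf4 and Tnfrsf18 are also direct neighbours. The shared chromosome was seen after the values and was not tested, so no pattern by chromosome is shown.

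Hbb-bs, a haemoglobin gene of red cells, was 6.98 RPKM in A1, 14.0 in B1, 4.78 in C2 and 12.7 in D2, against 79.1 to 110.6 in the other 8 libraries. C1 and D1 were among the high ones and C2 and D2 among the low ones, while for A and B it was the library of mouse 1 that was low.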
